A study of Mus musculus with 16 samples.

Results

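The genes described here encode the translation initiation and elongation factors of the mouse, the proteins that start and extend protein synthesis on the ribosome. Members were chosen by name: every gene whose symbol begins with Eif1 to Eif6 or with Eef1 or Eef2 and that has a probe set naming no other gene, which takes in the eIF2 kinases and the eIF4E-binding proteins. This gave 52 genes of the 17097 that the array names with a probe set of their own. The 52 genes have 108 such probe sets, 1 each for 20 genes and up to 5 for the other 32, and each gene is represented by its probe set with the highest mean level over all arrays. A further 12 probe sets carry a symbol of this kind together with another gene's symbol and were left out. Eif4g1, Eif4a2, Eif2s1 and Eif4ebp3 have no probe set naming them alone in the table used and were not analysed here.

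The study compared the striatum of 2 inbred strains given the antipsychotic risperidone, which blocks dopamine D2 and serotonin 5-HT2A receptors, and its title names the mTOR pathway and extrapyramidal (motor) side effects of antipsychotics. The 16 male mice were 7 to 8 weeks old and belonged to 4 groups of 4: A/J control, A/J risperidone, DBA/2J control and DBA/2J risperidone (supplier substrains A/JOlaHsd and DBA/2JRccHsd). Risperidone was given into the peritoneum at 1 mg/kg in 0.25 mL once daily for 3 days; the controls carry the label untreated, while the shared protocol names saline, so which of the 2 they had is not settled. Each mouse gave 1 Affymetrix expression array, whose values are log2 levels per probe set after RMA, a normalization that puts the arrays on a common scale. Housing was 8 mice to a cage, and no label assigns a mouse to a cage. All levels and differences below are log2 values from 1 array per mouse, given in the order of replicates 1 to 4.

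Initiation begins when eIF2, bound to GTP, delivers the initiator tRNA to the small ribosomal subunit with eIF1, eIF1A, eIF3 and eIF5, and eIF2B then recharges eIF2 for the next round. The mRNA is brought in by the eIF4 factors: eIF4E holds the cap, eIF4G is the scaffold and the helicase eIF4A, helped by eIF4B and eIF4H, opens the leader. The kinase mTORC1 controls this step largely by phosphorylating the eIF4E-binding proteins, which otherwise keep eIF4E from eIF4G, and it acts on elongation through the kinase of eEF2. These are controls on proteins, and an array measures mRNA only. Messages for elongation factors and many other parts of the translation machinery begin with a run of pyrimidines at the cap (5' TOP mRNAs), through which mTORC1 controls how well they are translated.

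Several arrays stood apart from their labels or from the rest. At 46 to 49 probe sets that separate the strains in control mice, 3 of the 4 A/J risperidone arrays lay between the strains, with a DBA/2J share of 27.83%, 36.2% and 39.0% in replicates 1, 2 and 4 against 0.444% in replicate 3 and -2.30% to 0.993% in A/J controls; the DBA/2J arrays lay between 87.7% and 103.2%. DBA/2J control replicate 4 correlated with the other arrays at 0.970 to 0.979, and no 2 arrays were identical (highest correlation 0.995). Of the 10 listed markers of striatal projection neurons 8 had a probe set of their own. The dimmest was Drd2, the dopamine receptor that risperidone blocks, with a mean level of 4.05, above only 17.2% of probe sets. The others ran from Rgs9, above 55.6% of probe sets, to Pde10a, above 85.3%. The 4 measured cortical neuron markers ran from Fezf2, above 81.9% of probe sets, to Slc17a7, above 97.7%, so the ranges of the lists overlapped. Probe sets differ in brightness, so these positions do not measure how much of a region was sampled, and in tissue RNA fewer cells of a type and less RNA per cell cannot be told apart. The strain check genes Gpnmb and Klrd1, which are nonfunctional in DBA/2J, overlapped between all groups, at 4.54 to 5.41 and 2.85 to 3.51.

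Sequences from the RefSeq promoter table (GRCm38.p6) show 2 features of these genes; 41 of the 52 had an entry. The first is the E-box CACGTG, which reads the same on both strands, in the 250 bases before a gene's start. It was found for 10 of 41 members (24.4%), for 6.86% of the 27025 genes in the table and for 5 of 62 ribosomal protein genes (8.06%). Counting only each gene's first listed start, it was found for 8 of 41 members (19.5%) and for 6.05% of all genes. The 5 windows below, with the E-box in capitals, are shown for Eif4a1, which was called between strains, for Eif5a, which had the smallest p between strains in risperidone mice, and for Eif4e, Eef2 and Eef2k, which act at the steps that mTORC1 controls. They lie at chr11:69672587-69672632 (minus strand) for Eif4a1, chr3:138527184-138527229 (plus) for Eif4e, chr11:69921435-69921480 (minus) for Eif5a, chr10:81176568-81176613 (plus) for Eef2 and chr7:120842780-120842825 (plus) for Eef2k.
Eif4a1: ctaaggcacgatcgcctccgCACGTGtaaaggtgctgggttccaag
Eif4e: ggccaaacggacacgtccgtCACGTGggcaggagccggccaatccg
Eif5a: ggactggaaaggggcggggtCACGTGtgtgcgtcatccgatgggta
Eef2: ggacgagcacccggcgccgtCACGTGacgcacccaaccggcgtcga
Eef2k: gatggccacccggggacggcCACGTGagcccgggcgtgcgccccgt

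The E-box lay 189 bases before the start of Eif4a1, 64 before that of Eif4e, 43 before that of Eef2 and 31 before that of Eef2k. The other 5 members with one were Eef1aknmt, Eif1b, Eif3f, Eif3k and Eif4h. A match describes these letters and is not evidence that a factor binds there. TGATGNAA was found for 2 of 41 members (4.88%) and 4.51% of all genes, with both strands searched.

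The second feature is a pyrimidine run near the start, searched on the gene's strand within 20 bases of it as a C followed by at least 5 C or T. It was found for 18 of 41 members (43.9%), 43 of 62 ribosomal protein genes (69.4%) and 36% of all genes in the table. The windows of Eef1a1, Eef2 and Eif3k are shown because the runs can be read in them; each holds 20 bases before and 30 from the listed start, with the run in capitals. They lie at chr9:78481695-78481744 (minus), chr10:81176611-81176660 (plus) and chr7:28981859-28981908 (minus). The runs begin at positions -5, 15 and 13 relative to the listed start, in that order. A run so placed does not show that the mRNA begins with it.
Eef1a1: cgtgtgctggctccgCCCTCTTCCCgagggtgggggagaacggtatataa
Eef2: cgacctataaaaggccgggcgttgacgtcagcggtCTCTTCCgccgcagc
Eif3k: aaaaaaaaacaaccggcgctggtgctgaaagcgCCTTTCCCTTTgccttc

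No translation factor mRNA passed the test for risperidone in either strain. None of the 52 members reached an adjusted p of 0.05 (limma, Benjamini-Hochberg over 45037 probe sets) in A/J, where 0% of all genes did; in DBA/2J, where 0.0526% did; in the mean of both strains (0.0409%); or in the interaction, which is the effect in DBA/2J less that in A/J (0%). At an unadjusted p under 0.05 there were 2 members in A/J (4.87% of all genes), 3 in DBA/2J (10.2%), 2 in the mean (6.62%) and 2 in the interaction (8.14%), which are shares of 52 near or below those of all genes. Differences were small: from -0.29 (Eef1akmt1) to 0.185 (Eif2s3y) in A/J and from -0.16 (Eef1aknmt) to 0.32 (Eef1e1) in DBA/2J. The latter was 0.0692 without DBA/2J control replicate 4.

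**Figure D1:**
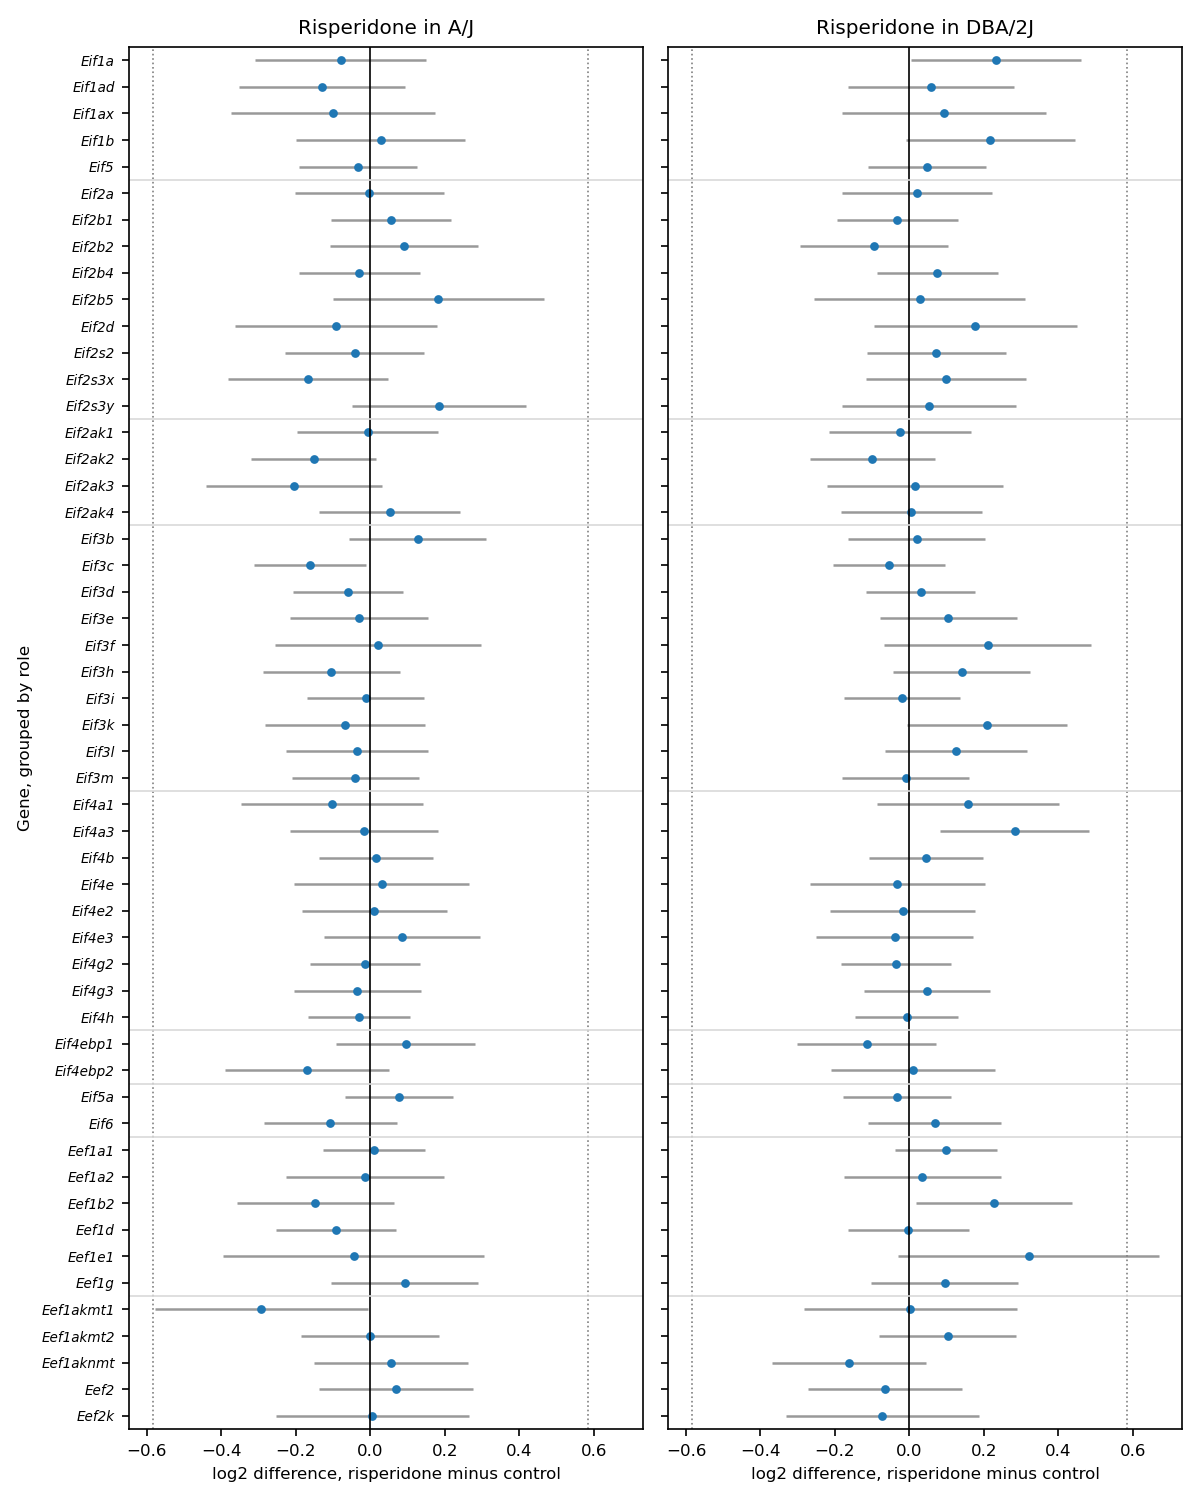
Log2 difference between risperidone and control mice (x axis) for each of the 52 genes (y axis, grouped by role) in A/J and DBA/2J; points are differences from 4 against 4 arrays, bars are unadjusted 95% intervals and dotted lines mark 1.5-fold in each direction. All 52 intervals in A/J and 51 in DBA/2J lie inside the dotted lines, Eef1e1 being the exception.

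The intervals show how precisely each difference was estimated. Each covers only the spread between arrays for a single member, so they are no joint bound on what could have been missed. The A/J risperidone arrays of intermediate strain markers and dim probe sets such as that of Eif2b5 are included. The unadjusted 95% interval of the risperidone difference lay within 1.5-fold in both directions for all 52 members in A/J and for 51 in DBA/2J, and within 1.25-fold for 40 and 39. The exception in DBA/2J was Eef1e1, whose interval reached 0.67 and whose control values were 7.31, 7.25, 7.32 and 6.29. For the mean of both strains, 52 intervals lay within 1.5-fold and 50 within 1.25-fold. The interaction was less precise, with 46 and 18.

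Of the risperidone differences in A/J mice, 19 were positive (45.7% of all genes' were), 32 negative and 1 at 0, with a median of -0.0237 against -0.01 for all genes. Those in DBA/2J were positive for 34 members (52.6% of all genes) and negative for 18, with a median of 0.0325 against 0.01. The 2 strains share no arrays, and 34 members had opposite signs in them, 9 were positive and 8 negative in both, and 1 was at 0 in A/J. The interaction was positive for 35 members (54.7% of all genes), with a median of 0.085 against 0.02, and the mean effect of both strains for 30 (51% of all genes), with a median of 0.0094 against 0.0013. Without DBA/2J control replicate 4 the DBA/2J median was 0.0117 and the interaction's 0.0383, both nearer 0, and with the mean ribosomal protein level as a covariate the DBA/2J median was -0.009.

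Some marker lists of cell types also leaned towards higher or lower values in risperidone than in control mice, with no marker called. Differences in DBA/2J were positive for 6 of 8 markers of striatal projection neurons (median 0.26), 4 of 5 of oligodendrocytes (0.24), 4 of 5 of choroid plexus and ependyma (0.26) and 3 of 3 of blood (0.25). In A/J they were negative for 7 of 8 striatal markers (median -0.145), 5 of 5 oligodendrocyte markers (-0.125) and 4 of 5 of microglia (-0.1125). They were positive for 3 of 3 blood markers (0.645) and 4 of 5 of choroid plexus and ependyma (0.08). Cortex markers were positive for 2 of 4 in each strain. Thalamus markers were positive for 2 of 5 in A/J and 3 of 5 in DBA/2J, and astrocyte markers for 2 of 5 and 4 of 5. Microglia markers were positive for 3 of 5 in DBA/2J. The mean blood marker level was 9.04 to 9.85 in A/J control, 9.90 to 10.22 in A/J risperidone, 9.26 to 10.18 in DBA/2J control and 9.53 to 10.20 in DBA/2J risperidone mice. DBA/2J control replicate 4, which enters the DBA/2J differences, had the lowest mean of all arrays for striatal markers (6.0) and oligodendrocyte markers (7.93). The part of these lists in the members' differences was not tested.

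**Figure D2:**
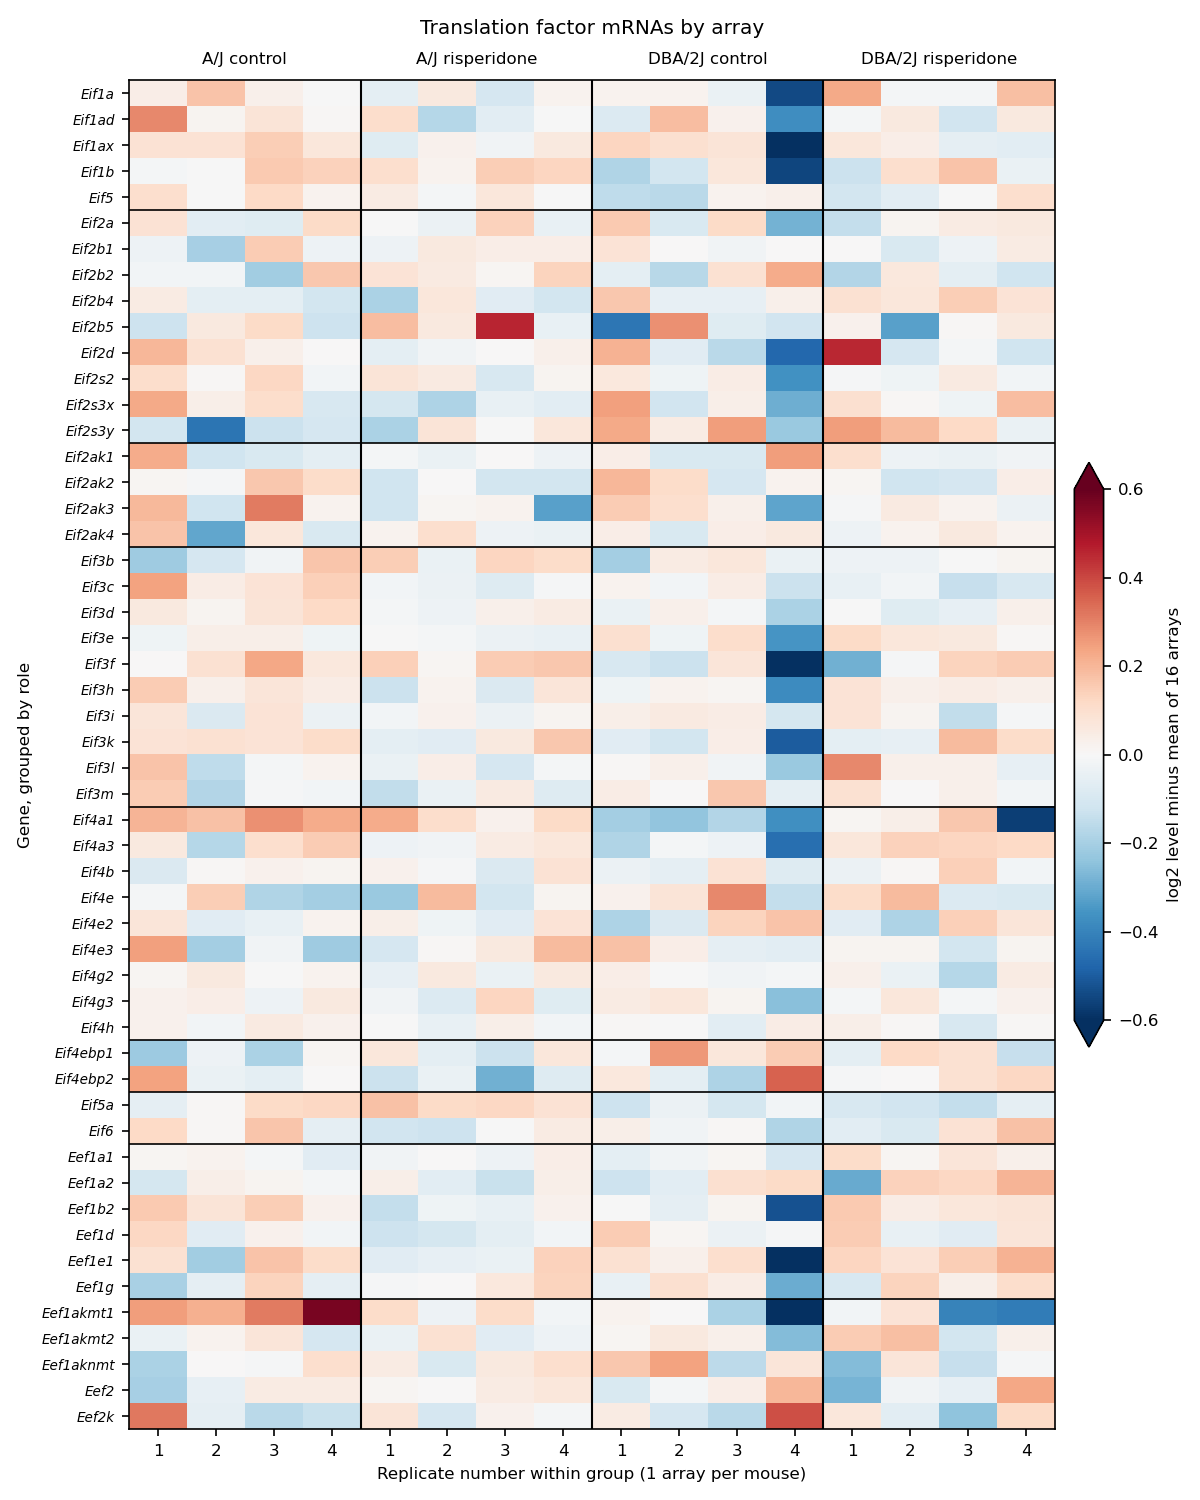
Log2 level of each of the 52 genes (y axis, grouped by role) in each of the 16 arrays (x axis, replicate number within group), as the deviation from that gene's mean over 16 arrays; red is above and blue below the mean, and the scale ends at 0.6. The column of DBA/2J control replicate 4 holds the lowest value of 23 genes, and the A/J control columns of Eif4a1 and Eef1akmt1 are red while the DBA/2J control columns are mostly blue.

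The eIF4E-binding proteins, through which mTORC1 controls cap-dependent initiation, did not pass the test in any comparison. Eif4ebp1 was at 6.57, 6.76, 6.60 and 6.80 in A/J control mice, 6.86, 6.73, 6.66 and 6.86 in A/J risperidone, 6.78, 7.05, 6.86 and 6.94 in DBA/2J control and 6.73, 6.91, 6.88 and 6.65 in DBA/2J risperidone mice. The groups overlapped in both strains, with the lowest values in 2 A/J controls and the highest in a DBA/2J control. The risperidone difference was 0.095 ± 0.089 (SE, adjusted p = 0.987) in A/J and -0.115 ± 0.089 (adjusted p = 0.654) in DBA/2J, and the interaction was -0.21 (adjusted p = 0.614). Between control mice the DBA/2J minus A/J difference was 0.225 (adjusted p = 0.189), which left Eif4ebp1 after only the 2 called members by p in that comparison.

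Eif4ebp2, the paralog that predominates in brain, was at 7.42, 7.14, 7.12 and 7.18 in A/J control, 7.05, 7.14, 6.89 and 7.10 in A/J risperidone, 7.24, 7.12, 6.99 and 7.53 in DBA/2J control and 7.17, 7.18, 7.27 and 7.30 in DBA/2J risperidone mice. The risperidone difference was -0.17 ± 0.105 (adjusted p = 0.953) in A/J and 0.01 (adjusted p = 0.981) in DBA/2J. Among risperidone mice every DBA/2J value lay above every A/J value (difference 0.185, adjusted p = 0.629), as groups did not overlap for 5 of the 52 members (9.62%) and 7.86% of all genes in that comparison. The highest of all 16 values, 7.53, was that of DBA/2J control replicate 4.

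**Figure D3:**
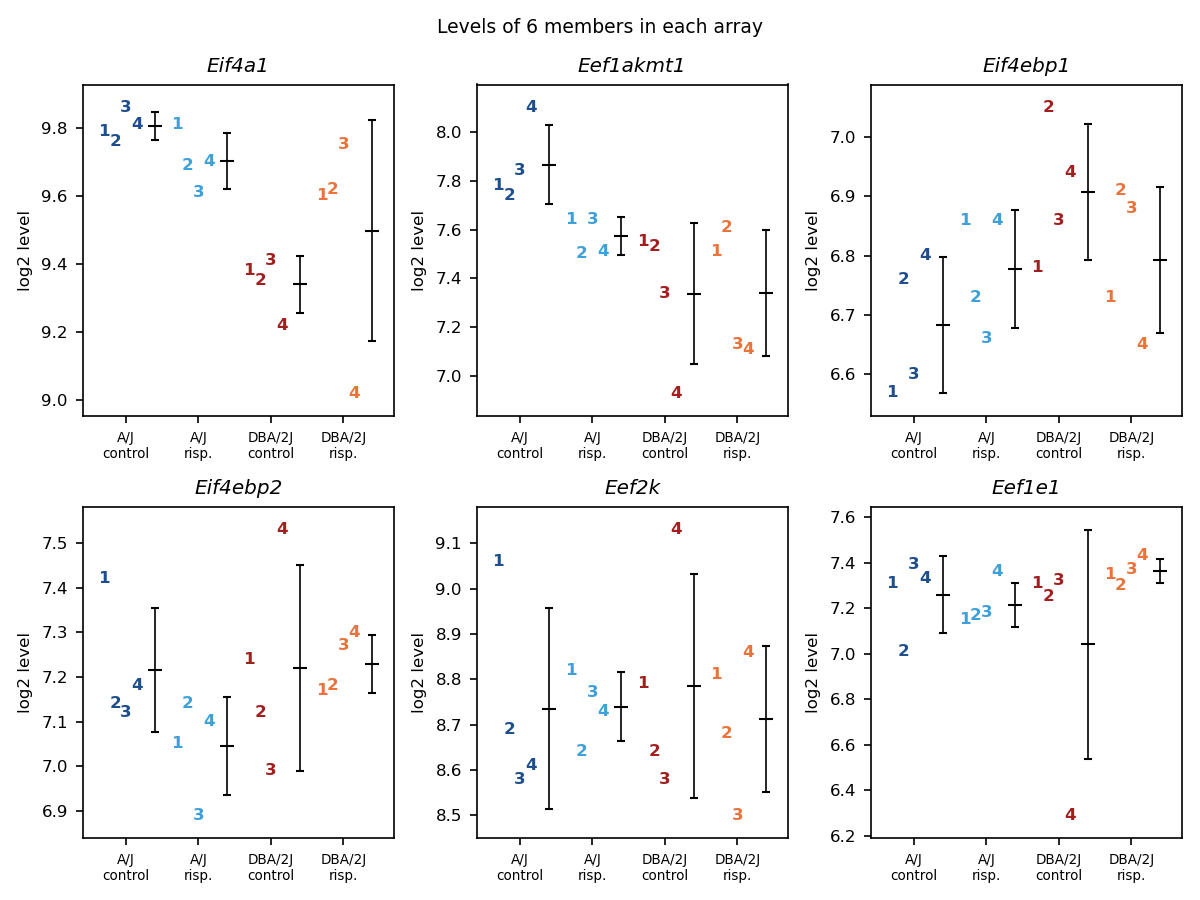
Log2 level (y axis) of Eif4a1, Eef1akmt1, Eif4ebp1, Eif4ebp2, Eef2k and Eef1e1 in the 4 groups (x axis; risp. is risperidone); each digit is 1 array and names its replicate, and the bars beside them are the mean and SD of 4 arrays. DBA/2J control mice lie below A/J control mice for Eif4a1 and Eef1akmt1, and replicate 4 of DBA/2J control is the highest array for Eif4ebp2 and Eef2k and the lowest for Eef1e1.

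Of the cap-binding and helicase factors, 9 were measured and none passed the test for risperidone. The cap-binding protein gene Eif4e lay between 4.51 and 5.02 over the 16 arrays, with differences of 0.03 in A/J and -0.0325 in DBA/2J. Its probe set was dim, above only 29.3% of probe sets. Eif4g2, which encodes an eIF4G relative that does not bind eIF4E, lay between 9.99 and 10.22, with differences of -0.015 and -0.035. Eif4b, the helicase's helper and a target of S6 kinase, lay between 8.82 and 9.05, with differences of 0.015 and 0.045. None of these 3 genes passed the test in any comparison.

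Eif4a3, a helicase of the exon junction complex rather than of initiation, had the smallest p of the members for risperidone in DBA/2J. It was at 7.73, 7.90, 7.88 and 7.46 in DBA/2J control and 7.98, 8.05, 8.04 and 8.03 in DBA/2J risperidone mice, and at 7.97, 7.74, 8.01 and 8.06 and 7.88, 7.89, 7.96 and 7.98 in the A/J groups. The DBA/2J groups did not overlap, and replicate 4 was the lowest control. The difference was 0.28 ± 0.095 (adjusted p = 0.311) in DBA/2J and -0.0175 in A/J, with an interaction of 0.30 (adjusted p = 0.526). Without DBA/2J control replicate 4 the DBA/2J difference was 0.188. Groups did not overlap for 3 members in DBA/2J, all with higher risperidone values (Eef1b2, Eif3h and Eif4a3), and for 3 in A/J, all with lower ones (Eef1akmt1, Eif1ax and Eif3c); each is 5.77% of the members, against 4.31% of all genes in either strain.

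The 5 members grouped by name as start codon factors all had a positive risperidone difference in DBA/2J. It ran from 0.0475 (Eif5, the GTPase activator of eIF2) to 0.23 (Eif1a), and 4 of the 5 had a negative difference in A/J. None passed the test. Eif1a, an autosomal gene for eIF1A, was at 7.10, 7.10, 7.04 and 6.54 in DBA/2J control and 7.31, 7.07, 7.07 and 7.26 in DBA/2J risperidone mice (adjusted p = 0.462). Eif1b, a close relative of Eif1, was at 9.08, 9.15, 9.33 and 8.71 and at 9.13, 9.36, 9.43 and 9.22 (difference 0.22, adjusted p = 0.481). In both genes control replicate 4 was the lowest of all 16 arrays. Without it 3 of the 5 differences in DBA/2J were positive, with Eif1a at 0.0975, Eif1b at 0.0983, Eif5 at 0.0792, Eif1ad at -0.0467 and Eif1ax at -0.103.

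eIF2, eIF2B and the similarly named Eif2a and Eif2d supplied 9 members, and none passed the test in any comparison. Eif2s3x and Eif2s3y are the X-linked and Y-linked genes of the gamma subunit of eIF2. In the order of the groups, A/J control, A/J risperidone, DBA/2J control and DBA/2J risperidone, Eif2s3x had means of 8.58, 8.42, 8.48 and 8.58 and Eif2s3y of 7.91, 8.09, 8.18 and 8.23. Eif2s3y lay between 7.66 and 8.00 in A/J control and between 7.88 and 8.35 in DBA/2J control mice, a strain difference of 0.27 ± 0.111 (adjusted p = 0.203). Eif2b4, a regulatory subunit of eIF2B, had a difference between the strains in risperidone mice of 0.17 ± 0.077 (adjusted p = 0.486). Eif2b5, the catalytic subunit of eIF2B, had the dimmest probe set of all members, at 2.69 to 3.58 above only 6.63% of probe sets, and was the only member below the lower quartile of the array.

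The 4 eIF2 kinases respond to haem shortage (Eif2ak1, HRI), double-stranded RNA (Eif2ak2, PKR), endoplasmic reticulum stress (Eif2ak3, PERK) and amino acid shortage (Eif2ak4, GCN2). None passed the test. Eif2ak2 had the smallest p of the members for the mean risperidone effect, -0.126 (adjusted p = 0.699): it lay between 5.11 and 5.28 in A/J control against 5.0 to 5.12 in A/J risperidone, and between 5.02 and 5.32 in DBA/2J control against 5.0 to 5.16 in DBA/2J risperidone mice. The groups overlapped in both strains. Eif2ak3 had differences of -0.205 in A/J (adjusted p = 0.944) and 0.015 in DBA/2J, Eif2ak1 of -0.0075 and -0.025, and Eif2ak4 of 0.0525 and 0.005.

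eIF3, the scaffold that joins mRNA and small subunit, supplied 10 members, with 8 negative differences in A/J (median -0.0375) and 7 positive ones in DBA/2J (median 0.0675), none called. Without DBA/2J control replicate 4 the latter were 6, with a median of 0.0092. Eif3c, a core subunit, was at 10.01, 9.81, 9.85 and 9.91 in A/J control and 9.75, 9.73, 9.69 and 9.76 in A/J risperidone mice, which did not overlap (difference -0.16 ± 0.072, adjusted p = 0.868). In DBA/2J its difference was -0.055, with overlapping groups. Eif3k and Eif3h had differences in DBA/2J of 0.21 (adjusted p = 0.479) and 0.14 (adjusted p = 0.569). Eif3k was at 9.04, 9.0, 9.15 and 8.61 in DBA/2J controls, where replicate 4 was again lowest, and at 9.05, 9.06, 9.30 and 9.22 after risperidone. Without that array the DBA/2J differences of Eif3k and Eif3h were 0.0942 and 0.045.

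Of the last initiation-related members, Eif5a encodes the factor that eases peptide bond formation at difficult sequences and carries hypusine, and Eif6 encodes a factor that keeps the large subunit from joining too early. Eif5a was at 9.92, 9.98, 10.09 and 10.10 in A/J control, 10.15, 10.09, 10.10 and 10.06 in A/J risperidone, 9.85, 9.94, 9.87 and 9.96 in DBA/2J control and 9.88, 9.86, 9.83 and 9.92 in DBA/2J risperidone mice. It had the smallest p of the members between strains in risperidone mice, with all DBA/2J values below all A/J values (-0.23 ± 0.069, adjusted p = 0.196). For Eif6 the risperidone difference was -0.1075 in A/J mice and 0.0675 in DBA/2J mice.

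The elongation factor eEF1 brings aminoacyl tRNA to the ribosome, and the 6 members named for it, Eef1e1 of the multisynthetase complex among them, included the brightest member. Eef1a1 lay between 11.34 and 11.55 over all arrays, with risperidone differences of 0.01 in A/J and 0.0975 in DBA/2J. Eef1a2, the form used by neurons and muscle, lay between 9.42 and 9.93, with differences of -0.015 and 0.035. Neither form passed the test in any comparison. Eef1b2, a subunit of the exchange factor for eEF1A, was at 9.88, 9.80, 9.87 and 9.75 in A/J control, 9.58, 9.70, 9.68 and 9.75 in A/J risperidone, 9.72, 9.67, 9.74 and 9.20 in DBA/2J control and 9.88, 9.77, 9.79 and 9.80 in DBA/2J risperidone mice. Its differences of -0.1475 in A/J and 0.23 in DBA/2J gave the smallest interaction p of the members (0.375 ± 0.142, adjusted p = 0.461). Without DBA/2J control replicate 4 the DBA/2J difference was 0.10 and the interaction 0.2475.

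Eef2, the translocase, lay between 10.31 and 10.82, with differences of 0.07 in A/J and -0.065 in DBA/2J. Its kinase Eef2k, which slows elongation when mTORC1 is low or calcium is high, was at 9.06, 8.69, 8.58 and 8.61 in A/J control, 8.82, 8.64, 8.77 and 8.73 in A/J risperidone, 8.79, 8.64, 8.58 and 9.13 in DBA/2J control and 8.81, 8.68, 8.50 and 8.86 in DBA/2J risperidone mice. Differences were 0.005 and -0.0725, and the groups overlapped in both strains. The highest array was again DBA/2J control replicate 4.

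Between the strains in control mice, 2 of the 52 members were called. Eif4a1, the main eIF4A helicase, and Eef1akmt1, a lysine methyltransferase of eEF1A, had lower levels in control mice of DBA/2J than of A/J, and no member was higher; 3.46% of all genes were called in that comparison, 2.01% as lower. At an unadjusted p under 0.05 there were 9 of 52 members, against 16.5% of all genes. Both counts, taken in either direction, are shares of 52 near those of all genes. The control groups did not overlap for 5 members (9.62%), all lower in DBA/2J, against 9.13% of all genes. Among risperidone mice no member was called (0.643% of all genes were) and 2 had an unadjusted p under 0.05 (8.86% of all genes). Differences between control strains were positive for 18 members and negative for 34 (49.4% of all genes positive), with a median of -0.0362 against -0.0025; between risperidone mice they were positive for 28 and negative for 23 (55% of all genes positive), with a median of 0.0175 in members and in all genes. The A/J risperidone arrays of intermediate strain markers enter that second comparison.

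Eif4a1 was at 9.79, 9.76, 9.86 and 9.81 in A/J control, 9.81, 9.69, 9.61 and 9.70 in A/J risperidone, 9.38, 9.35, 9.41 and 9.22 in DBA/2J control and 9.60, 9.62, 9.75 and 9.02 in DBA/2J risperidone mice. The control groups lay well apart. In DBA/2J risperidone mice, replicates 1 to 3 lay between the 2 control groups, and only replicate 4, at 9.02, lay below the DBA/2J controls. The control difference was -0.465 ± 0.117 (adjusted p = 0.0299), which is 1.38-fold lower, and the difference in risperidone mice was -0.205 (adjusted p = 0.633). A second probe set of Eif4a1 was at 8.37 to 8.77 in A/J and 8.22 to 8.49 in DBA/2J controls, a difference of -0.19 (adjusted p = 0.313). Leaving out any of A/J control replicates 1 to 4 or DBA/2J control replicates 1, 2 or 4 ended the call, at adjusted p from 0.051 to 0.0843 and a difference from -0.425 to -0.48. Leaving out any other single array kept it. The adjusted p then ran from 0.00114 (without DBA/2J risperidone replicate 4) to 0.0423 (without DBA/2J control replicate 3).

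Eef1akmt1 was at 7.78, 7.74, 7.84 and 8.10 in A/J control, 7.64, 7.50, 7.64 and 7.51 in A/J risperidone, 7.55, 7.53, 7.34 and 6.93 in DBA/2J control and 7.51, 7.61, 7.13 and 7.11 in DBA/2J risperidone mice. All A/J controls were above all other arrays. The difference between control strains was -0.53 ± 0.136 (adjusted p = 0.0351), or 1.44-fold lower, and that between risperidone mice -0.23 (adjusted p = 0.648). The A/J risperidone mice, of which 3 have intermediate strain markers, were below A/J controls by a difference of -0.29 ± 0.136 (adjusted p = 0.898). A second probe set gave -0.98 between control strains (adjusted p = 0.0999), with DBA/2J control replicate 4 at 3.64 and its other arrays at 5.66 to 5.85. Its call did not survive leaving out A/J control replicate 1, 3 or 4 or DBA/2J control replicate 3 or 4, at adjusted p from 0.0568 to 0.113 and a difference from -0.39 to -0.56.

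Neither gene keeps its call without DBA/2J control replicate 4: Eif4a1 had a difference of -0.425 (adjusted p = 0.0723) and Eef1akmt1 of -0.39 (adjusted p = 0.0925). Both calls were also lost without the 3 A/J risperidone arrays of intermediate strain markers (adjusted p = 0.07 and 0.0798) and with the mean ribosomal protein level as a covariate (adjusted p = 0.0652 and 0.0867), at the same or smaller differences of the same sign.

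Markers of several cell types differed in the same comparison. Oligodendrocyte markers were lower in DBA/2J control mice for 5 of 5 measured genes (2 called, median -0.69), their mean level being 8.72 to 9.39 in A/J and 7.93 to 8.40 in DBA/2J controls; microglia markers were lower for 5 of 5 (2 called, median -0.32), with means of 6.73 to 6.86 against 6.33 to 6.38. Striatal projection neuron markers were lower for 6 of 8 (2 called, median -0.29), with means of 6.20 to 6.73 against 6.0 to 6.30. Thalamus markers were lower for 5 of 5 (none called, median -0.335) and those of choroid plexus and ependyma for 4 of 5 (none called, median -0.23). Cortex markers were higher for 2 of 4 (1 called, median 0.045), astrocyte markers for 3 of 5 (1 of the others called lower, median 0.025) and blood markers for 2 of 3 (none called, median 0.23). No marker was listed at 0. Their part in the differences of the 2 genes was not tested.

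Eif4g3, a scaffold of the cap-binding complex, was the only member with a called difference on a probe set other than its brightest, and it was singled out after its values were seen. The brightest probe set had means of 8.79, 8.75, 8.73 and 8.78 in the 4 groups. The dimmest of its 3 probe sets, above 36.7% of all probe sets, was at 5.28, 5.22, 5.07 and 5.34 in A/J control, 5.50, 5.31, 5.66 and 5.62 in A/J risperidone, 4.57, 4.68, 4.77 and 5.10 in DBA/2J control and 4.69, 5.08, 4.68 and 4.65 in DBA/2J risperidone mice. The DBA/2J minus A/J difference was -0.45 ± 0.120 in control mice (adjusted p = 0.0436) and -0.75 ± 0.120 in risperidone mice (adjusted p = 0.00307). The third probe set gave -0.30 (adjusted p = 0.153) and -0.265 (adjusted p = 0.443). Without the 3 A/J risperidone arrays of intermediate strain markers the larger difference was -0.885 (adjusted p = 0.0653), resting on 1 A/J array whose spread was assumed to be that of the other groups.

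DBA/2J control replicate 4 was lowest of the 16 arrays for 23 of the 52 members; it was lowest for 23.5% of all genes. It was highest for 5 members and for 20.4% of all genes. Against the other 3 arrays of its group it was lower for 39 of 52 members, with a median of -0.155 (0.0067 over all genes). The lowest were Eef1e1, which encodes a protein of the multisynthetase complex, at 6.29 against 7.25 to 7.32, Eif1ax, the X-linked gene for eIF1A, at 7.45 against 8.21 to 8.26, and Eif3f at 9.87 against 10.44 to 10.64. The 5 highest were Eif4e2, Eif2b2, Eif2ak1, Eif4ebp2 and Eef2k. The mean level of 68 ribosomal protein genes was 9.83 in that array and 10.27 to 10.33 in the rest of its group.

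In that array the median against the other 3 was -0.18 for the 18 members with a pyrimidine run (13 lower) and -0.14 for the 23 without (16 lower). The search does not pick out 5' TOP mRNAs, since 36% of all genes in the promoter table had such a run. No conclusion is drawn from these medians. Over 16 arrays the correlation of a member with the mean ribosomal protein level had a median r of 0.346, with 20 of 52 members above 0.5. Over the 15 arrays without DBA/2J control replicate 4 it was 0.003, with 7 above 0.5 and 26 below 0. These correlations share the arrays and are given as a description. What set the array apart was not tested.

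**Figure D4:**
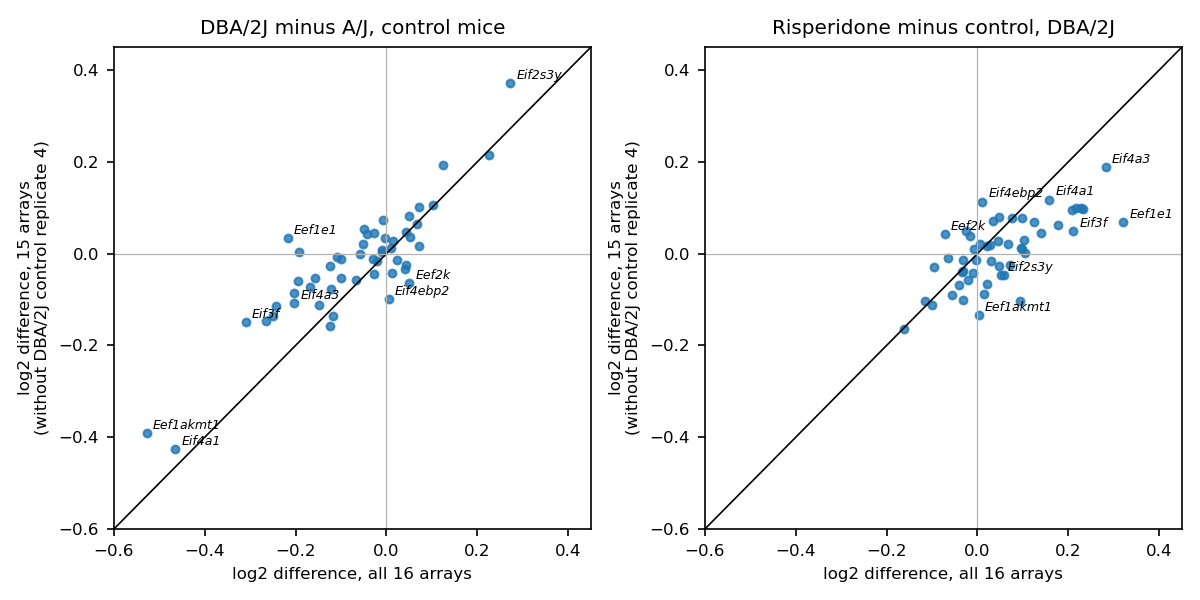
Log2 difference with all 16 arrays (x axis) against the same difference without DBA/2J control replicate 4 (y axis) for the 52 genes, between strains in control mice (left) and for risperidone in DBA/2J (right); the line marks equal values. Eef1e1 and Eif3f move towards or past 0 in the left panel and towards 0 in the right one, and Eef1akmt1 moves from -0.53 to -0.39 and Eif4a1 from -0.465 to -0.425 in the left one.

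The neighbouring genes of the pathway were read from lists. Of the mTORC1 list, 12 of 15 genes were measured and none was called in any of the 6 comparisons; the median risperidone difference was -0.025 in A/J and 0.0063 in DBA/2J. Larp1, which binds 5' TOP mRNAs, had the smallest p of the list for risperidone in DBA/2J (0.25 ± 0.0935, adjusted p = 0.364). None of the 10 genes of termination, recycling and poly(A) binding was called in any comparison, with risperidone medians of -0.0437 and 0.104.

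Of the 11 genes of the integrated stress response, the programme downstream of the eIF2 kinases, 1 was called in 1 comparison. This was Gcn1, which encodes the partner that activates the kinase GCN2. It was at 7.75, 7.65, 7.73 and 7.71 in A/J control and 8.03, 8.01, 8.01 and 8.07 in DBA/2J control mice (0.32 ± 0.066, adjusted p = 0.00774). These groups did not overlap, which held for 9.13% of all genes in that comparison. In risperidone mice the difference was 0.165 (adjusted p = 0.409). With only the 8 control arrays fitted, the adjusted p was 0.0773.

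Of 68 ribosomal protein genes none was called for risperidone in either strain; 64 had a positive difference in DBA/2J (median 0.16) and 33 in A/J (median -0.005). Between strains in control mice 1 was called higher (Rpl14) and 3 lower, with a median of -0.12. DBA/2J control replicate 4, with its low ribosomal protein level, enters both the DBA/2J and the control comparison.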

How the data were processed

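Striatal total RNA from 16 mice was hybridised to Affymetrix mouse arrays, 1 per mouse. The authors deposited log2 expression levels per probe set after RMA, per the submitters' processing notes; the version and any array filter are not given in the sources used here. Array controls (104 of 45141 rows) were dropped, and the other 45037 probe sets all entered the tests, dim ones included. The platform's annotation gives a single gene for 28898 of them, several for 551 and none for 15588. RefSeq (GRCm38.p6) held all 52 members under the same Entrez ID and symbol.

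The 4 group means were estimated jointly over the 16 arrays in limma 3.58.1 under R 4.3.3, using lmFit and eBayes, and 6 comparisons were drawn from them. Tests were two-sided, with Benjamini-Hochberg adjustment over 45037 probe sets and a threshold of 0.05. SE is limma's and intervals are unadjusted 95% intervals. The number of arrays, 4 per group, limits the precision. Each p-value sets a difference against the spread between these arrays, which was taken as shared by the 4 groups. Genes named were members called, the 4 with the smallest p in each comparison, the 3 brightest and 3 dimmest, and a fixed set of 24, of which 20 were measured; others are named where a range, a role or 1 array singled them out. The members and lists were chosen with earlier results of these data known.

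Strain marker probe sets differed by 1.5 or more (log2) between control strains at an adjusted p under 0.01 and reached 7 or more in the brighter strain. The DBA/2J share is the median position of an array's unlogged values between the control means of the strains. Motifs were searched in RefSeq promoter sequences, and the fit was tested on simulated data. Figures were drawn with matplotlib 3.10.9. The alternatives tried were other normalizations, variance models, filters, probe set rules, array weights, covariates, the replicate number as a block and leaving out arrays.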

Additional observations from a re-analysis of the deposited data

Results flagged for a closer look

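A value was flagged where 1 of the 4 arrays of a group lay far from the other 3 by Dixon's gap criterion, which chance meets in about 1 in 20 groups. Among the 208 member-by-group sets of values 17 met it, 8 of them in DBA/2J control replicate 4. Only the 11 in genes named by the rule stated under processing are given below, together with flagged means of gene lists.

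In DBA/2J control replicate 4, Eef1b2 was at 9.2 against 9.67 to 9.74 in its 3 group mates, Eif1a at 6.54 against 7.04 to 7.10, Eif3h at 9.19 against 9.54 to 9.59 and Eif4g3 at 8.51 against 8.78 to 8.83. The mean of all 52 members was 7.997 in that array against 8.169 to 8.181. The mean of the mTORC1 list was 7.933 against 8.079 to 8.098, and that of the ribosomal protein genes 9.829 against 10.267 to 10.326.

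In DBA/2J risperidone replicate 1, Eef1a2 was at 9.42 against 9.85 to 9.93 and Eif2ak1 at 7.71 against 7.57 to 7.59. Eif2b5, the dimmest member, was at 2.8 in DBA/2J risperidone replicate 2 against 3.13 to 3.18. Eif2ak2 was at 5.12 in A/J risperidone replicate 2 against 5.0 to 5.01, and Eif3f was at 10.58 in the same array against 10.71 to 10.73. Eif2ak4 was at 6.26 in DBA/2J control replicate 2 against 6.39 to 6.41. Eif2s3y was at 7.66 in A/J control replicate 2 against 7.97 to 8.00.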

How the results depend on the processing

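Neither Eif4a1 nor Eef1akmt1 changed sign between control strains under any alternative run. The median member difference turned negative for risperidone in DBA/2J (-0.009, against 0.0325) and for the mean of both strains (-0.0075, against 0.0094) with the mean ribosomal protein level as a covariate, and for that mean also without the 3 A/J risperidone arrays of intermediate strain markers and DBA/2J control replicate 4 (-0.0133). The count of members called between the strains in control mice, 2 with all arrays, was 1 with only the 8 arrays compared, 1 with a gene's probe sets averaged, 3 when any probe set of a gene could call it (Eif4g3 added), 0 without the 3 A/J risperidone arrays of intermediate strain markers, 0 without those arrays and DBA/2J control replicate 4, 0 with the mean ribosomal protein level as a covariate, and from 0 to 2 when each array was left out in turn. In risperidone mice 1 member, Eif4g3, was called when any probe set of a gene could call it, against 0 otherwise. In the other 4 comparisons no member was called under any alternative. The strain marker share was a covariate for the 4 risperidone comparisons only, since between strains it stands for the strain. The dimmest probe set of Eif4g3 had differences from -0.38 to -0.55 in control mice, at adjusted p from 0.00652 to 0.117. In risperidone mice its differences ran from -0.68 to -0.885. There the adjusted p was 0.00083 to 0.0182 in fits that kept more than 1 A/J risperidone array.

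Arrays with the same replicate number had mean correlations of 0.025 to 0.074, against -0.008 to -0.025 for other numbers, and at most 2 of 4 pairs exceeded 0.1, so the numbers were not taken as pairs. With the replicate number as a block the 2 calls between control strains were kept and no call changed for any member. The dimmest probe set of Eif4g3 then had an adjusted p of 0.0568 in control mice.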
